A study of Homo sapiens with 3 samples.

Results

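The 35 genes described here encode the route from glucose to lactate and its nearest branches: the carriers that bring glucose into the cell and take lactate out, the enzymes of glycolysis, lactate dehydrogenase, the pyruvate dehydrogenase complex with its kinases and phosphatase, and enzymes of the pentose phosphate pathway. They are the rows of the count matrices that carry the symbols on a list of 35 names, and all 35 were found among 58735 features. The libraries were made by single-cell RNA sequencing on the 10x Genomics platform from FaDu, an established line of human squamous carcinoma cells of the hypopharynx, and from a FaDu line resistant to TPF, a regimen of a taxane, a platinum drug and fluorouracil. The FaDu library was treated with cinobufotalin, a cardiac steroid found in toad venom. The 2 libraries of the resistant line were treated with TPF, and with TPF plus cinobufotalin (here the combination library). The sources used here do not give dose, time or how the resistant line was derived, and no untreated library is analysed here. The resistant libraries therefore differ from the FaDu library in the line and in the drug together, and only the combination and resistant TPF libraries differ by 1 labelled factor, cinobufotalin. Each group was 1 library, so no difference below has a replicate check. The intervals given are exact 95% intervals that cover counting error only, and no p-value was computed.

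In glycolysis, a cell takes up glucose through carriers of the SLC2A family, traps it as a phosphate with hexokinase, commits it with phosphofructokinase, and splits the hexose into trioses whose oxidation by GAPDH and later steps yields ATP and pyruvate. Pyruvate is then either reduced by lactate dehydrogenase and exported as lactate through the monocarboxylate carriers SLC16A1 and SLC16A3, which need the chaperone basigin (BSG), or admitted to mitochondria and oxidised by pyruvate dehydrogenase. Many tumour cells run the first branch even with oxygen present, and several genes of the route are known targets of the hypoxia-inducible factor HIF-1.

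After cells with under 1000 UMIs (unique molecular identifiers, each standing for 1 captured RNA molecule), under 500 genes or over 20% mitochondrial UMIs were left out, 6123, 4862 and 7525 cells remained in the FaDu cinobufotalin, resistant TPF and combination libraries, an order kept below. Their median depths were 24440, 27920.5 and 17867 UMIs, and 9 to 13 cell barcodes were shared by each pair of libraries. The FaDu library stood apart in makeup: MALAT1, a nuclear RNA, had a median share per cell of 0.0892% there against 0.795% and 0.731%, and ribosomal protein genes took 18.5% against 13.5% and 14.0%. All 11 squamous epithelial markers were present in each library, and their summed level was 6832, 5126 and 3968 CPM. Of the markers listed for other cell types, none of 10 for fibroblasts or 14 for immune cells averaged 5 CPM, and 1 of 9 endothelial genes (ERG, 9.54, 20.1 and 24.9 CPM) and 1 of 6 erythroid genes (HBA1, 5.71, 12.1 and 9.53 CPM) did. The summed level of the fibroblast list was 3.5 to 7.58 CPM and of the immune list 8.84 to 11.1 CPM.

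Levels are in CPM: the gene's UMIs summed over the kept cells, per 1000000 UMIs of its library. Together the 35 genes took 1.31% of all UMIs in the FaDu cinobufotalin library, 0.937% in the resistant TPF library and 0.889% in the combination library. GAPDH alone accounted for most of that sum in each library. The same order held cell by cell: the median cell gave 1.22%, 0.881% and 0.817% of its UMIs to these genes, and 0.466%, 0.405% and 0.368% once GAPDH was left out. The ranges of cells overlapped widely, from 0.644% to 1.91% (5th to 95th percentile) in the FaDu library, 0.467% to 1.42% in the resistant TPF library and 0.335% to 1.38% in the combination library. Of the 35, 30 averaged at least 10 CPM over the 3 libraries and enter the counts below. The other 5 (SLC2A3, ALDOC, ENO3, PDK1 and TIGAR) were lower, and their values are given without a call.

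**Figure D1:**
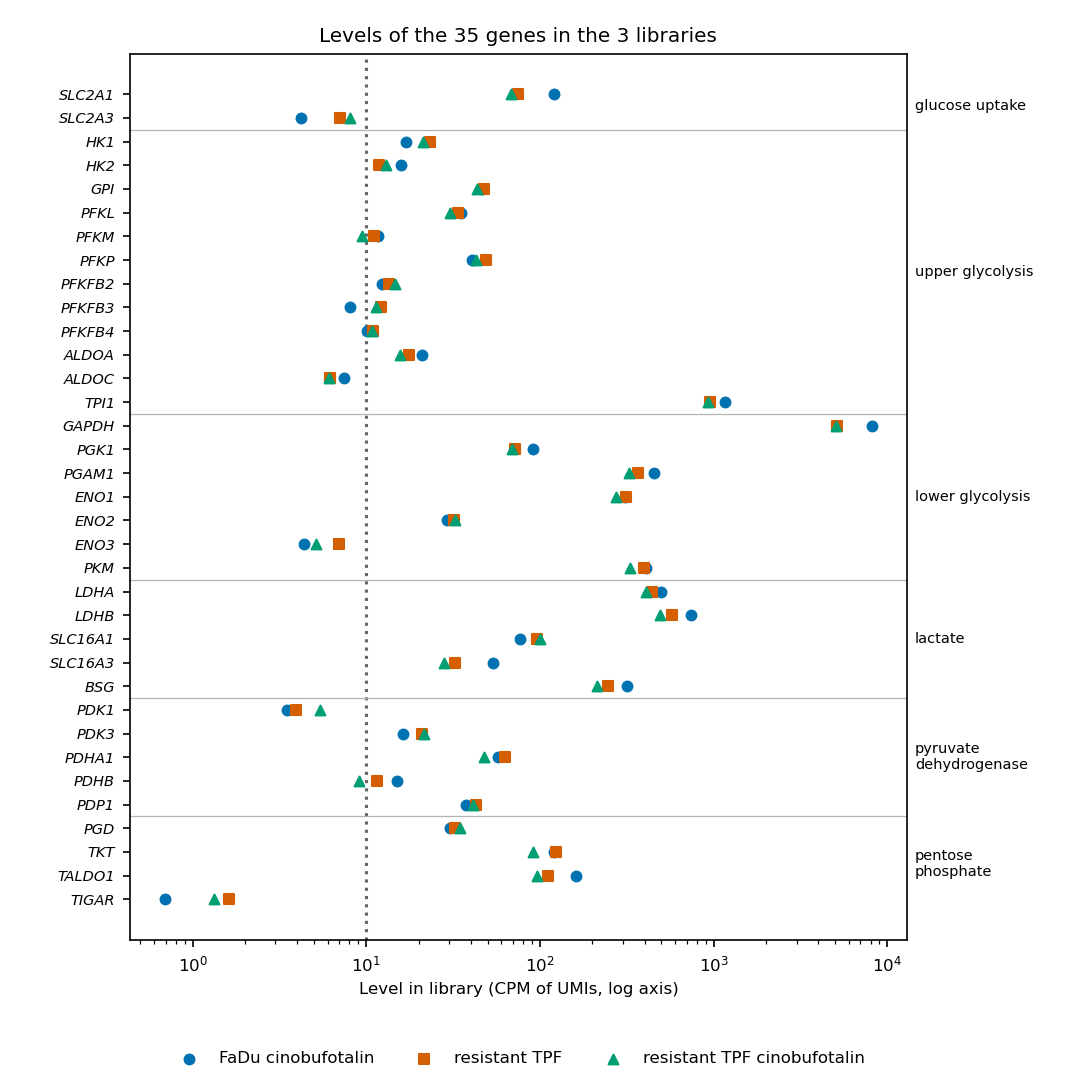
Level of each of the 35 genes in the 3 libraries, in CPM on a log axis, in order of role; the dotted line marks 10 CPM and each point is 1 library. The FaDu cinobufotalin point lies to the right for SLC2A1 (119.7 CPM), GAPDH (8142 CPM) and SLC16A3 (53.4 CPM), and to the left for SLC2A3 (4.21 CPM) and SLC16A1 (76.5 CPM), while the 2 resistant libraries lie close together for most genes.

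Sequence upstream of these genes is shown first for 6 of them: 5 of the 6 members that were at least 1.5-fold lower in a resistant library (GAPDH, SLC16A3, PDHB, LDHB and TALDO1, values below) and, chosen for its letters and not for a call, a member with several copies of letters bound by hypoxia-inducible factors and by E-box proteins (HK2). Both factor classes are known to act on glycolytic genes. The sequences are RefSeq's (GRCh38.p14), from the 250 bases before a RefSeq start, cut to the stretch that lies in no GENCODE 29 exon, and written 5′ to 3′ on the gene's strand. By GENCODE 29 the PDHB and TALDO1 stretches lie directly upstream of the gene, and the other 4 lie between exons within the span of the gene's own model. Capitals mark ACGTG or GCGTG on either strand.
GAPDH, chr12:6535142-6535263, plus strand: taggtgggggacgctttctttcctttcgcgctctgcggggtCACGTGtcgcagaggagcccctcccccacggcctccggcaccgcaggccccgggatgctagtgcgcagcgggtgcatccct
SLC16A3, chr17:82228792-82229031, plus strand: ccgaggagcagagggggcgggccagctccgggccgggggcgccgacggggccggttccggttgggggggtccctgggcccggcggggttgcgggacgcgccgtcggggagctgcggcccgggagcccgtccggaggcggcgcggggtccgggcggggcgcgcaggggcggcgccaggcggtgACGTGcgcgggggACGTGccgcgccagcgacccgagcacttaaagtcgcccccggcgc
PDHB, chr3:58433858-58434082, minus strand: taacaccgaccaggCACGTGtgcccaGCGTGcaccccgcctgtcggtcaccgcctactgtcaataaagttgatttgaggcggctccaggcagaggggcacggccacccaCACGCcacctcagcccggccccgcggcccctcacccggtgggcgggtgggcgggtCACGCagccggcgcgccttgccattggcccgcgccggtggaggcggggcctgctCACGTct
HK2, chr2:74834920-74835169, plus strand: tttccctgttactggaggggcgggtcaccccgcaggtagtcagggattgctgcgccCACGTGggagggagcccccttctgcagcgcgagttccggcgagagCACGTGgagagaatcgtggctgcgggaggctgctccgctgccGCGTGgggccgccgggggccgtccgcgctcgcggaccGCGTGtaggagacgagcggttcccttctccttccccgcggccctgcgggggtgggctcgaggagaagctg
LDHB, chr12:21657972-21658092, minus strand: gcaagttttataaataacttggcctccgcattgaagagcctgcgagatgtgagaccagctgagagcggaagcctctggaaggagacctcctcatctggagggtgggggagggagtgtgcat
TALDO1, chr11:747214-747328, plus strand: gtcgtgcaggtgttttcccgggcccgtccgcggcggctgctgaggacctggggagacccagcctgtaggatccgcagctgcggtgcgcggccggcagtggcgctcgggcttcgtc
The GAPDH stretch held 1 CACGTG, which reads as ACGTG on both strands. SLC16A3 had 5 RefSeq starts, and the one shown had 2 copies of ACGTG. PDHB, the beta subunit of the first enzyme of pyruvate dehydrogenase, had 3 of ACGTG and 3 of GCGTG, counted on both strands. HK2 had 4 and 2, with 2 CACGTG, and the LDHB and TALDO1 stretches had neither. A promoter window was found for 31 of the 35 members (none for SLC2A3, PFKFB2, SLC16A1 or PDP1). Over the full 250 bases, ACGTG on either strand was present before at least 1 start of 19 of the 31 members (61.3%), against 21.7% of all 27305 genes with a window and 30.6% of the 6399 of them that averaged at least 10 CPM here. GCGTG was before 58.1% of members, 36.2% of all genes and 55.2% of those at 10 CPM or more. CACGTG, the E-box, which contains ACGTG, was before 25.8%, 7.73% and 12.1%. The members had more annotated starts per gene (a mean of 1.90 against 1.29 over all genes), and each start adds a window in which a match can be found. A match is only the presence of these letters. The window of SLC2A1, the other member lower by 1.5-fold, lies wholly in annotated exons and is not printed. It held neither ACGTG nor GCGTG, which says only that these letters are not in those 250 bases.

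The first question the libraries allow is how the resistant line under TPF differed from FaDu under cinobufotalin. No member was at least 1.5-fold higher in the resistant TPF library and 3 of 30 were at least 1.5-fold lower: SLC2A1, SLC16A3 and GAPDH. Over all 8143 genes at 10 CPM or more, 35% were higher by that fold and 2.01% were lower. The median log2 ratio (log2 of the CPM ratio, resistant TPF over FaDu cinobufotalin) was -0.059 for the 30 members and 0.37 for all genes. In the combination library against the same FaDu library, 0 members were higher and 6 were lower (SLC2A1, GAPDH, LDHB, SLC16A3, PDHB and TALDO1), against 32.6% and 4.14% of all genes. There the median was -0.28 for members and 0.31 for all genes. Both comparisons use the same FaDu library, so they are not separate evidence. Of the 30 members, 16 were below 0 in the first pair and 20 in the second. The medians of all genes were above 0 in both, so most genes lay above 0, and their exact share was not counted.

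How many members count as lower turned on the scale, and no scale tried raised a member at 10 CPM or more past 1.5-fold. At 2-fold on the CPM scale, 0 members were called in any pair (all genes 13.2% higher and 0.344% lower in resistant TPF over FaDu, 13.3% and 0.761% in combination over FaDu). Measured from the median gene of each pair, 12 members were lower in the resistant TPF library (all genes 11.3% lower, 14.9% higher) and 16 in the combination library (all genes 13.3% lower, 17.5% higher). With edgeR's TMM factors the counts were 16 (all genes 21.8% lower, 8.16% higher) and 20 (all genes 25.3% lower, 9.63% higher). With all deposited barcodes 1 member (PFKFB3) was higher in resistant TPF (all genes 34.5%). With genes from 1 CPM, 3 of 35 were higher in resistant TPF (SLC2A3, ENO3 and TIGAR, all genes 41%) and 3 in the combination (SLC2A3, PDK1 and TIGAR, all genes 38.6%). TMM moved the median of all genes from 0.37 to -0.20 in the first pair and from 0.31 to -0.22 in the second. With TMM, 1 of the 30 members (PFKFB3) remained above 0 in the first pair and 0 in the second, so the ratios above 0 against FaDu given below for these members are below 0 with TMM, with PFKFB3 in the first pair as the exception. Ratios below are of CPM, and each can be read against the medians of all genes just given.

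The second question is what cinobufotalin added to TPF in the resistant line. No member was 1.5-fold higher or lower in the combination library than in the resistant TPF library, on any of the 3 scales. Such calls were rare in this pair: 0.0737% of all genes were higher and 0.172% lower by 1.5-fold, 0.0982% lower and 0.111% higher from the median gene, 0.0988% lower and 0.111% higher with TMM, and 0.0123% each way at 2-fold. The log2 ratios of the 30 members ran from -0.43 (TKT) to 0.13 (HK2), with a median of -0.14 against -0.058 for all genes. Of the 30, 24 were below 0 (21 with TMM). The median of all genes was also below 0 (-0.011 with TMM), so most genes lay below 0 too, and their exact share was not counted. The lowest of the 30 were TKT, at -0.43 (95% interval -0.46 to -0.40), PDHA1 at -0.39 and PDHB at -0.35. Of the members under 10 CPM, ENO3 was lowest at -0.44 and PDK1 highest at 0.46 (95% interval 0.29 to 0.62). PDK1 was at -0.051 in cells with MALAT1 at 0.05% to 0.2% of UMIs. These are differences between single libraries, and the spread between cultures is unknown.

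**Figure D2:**
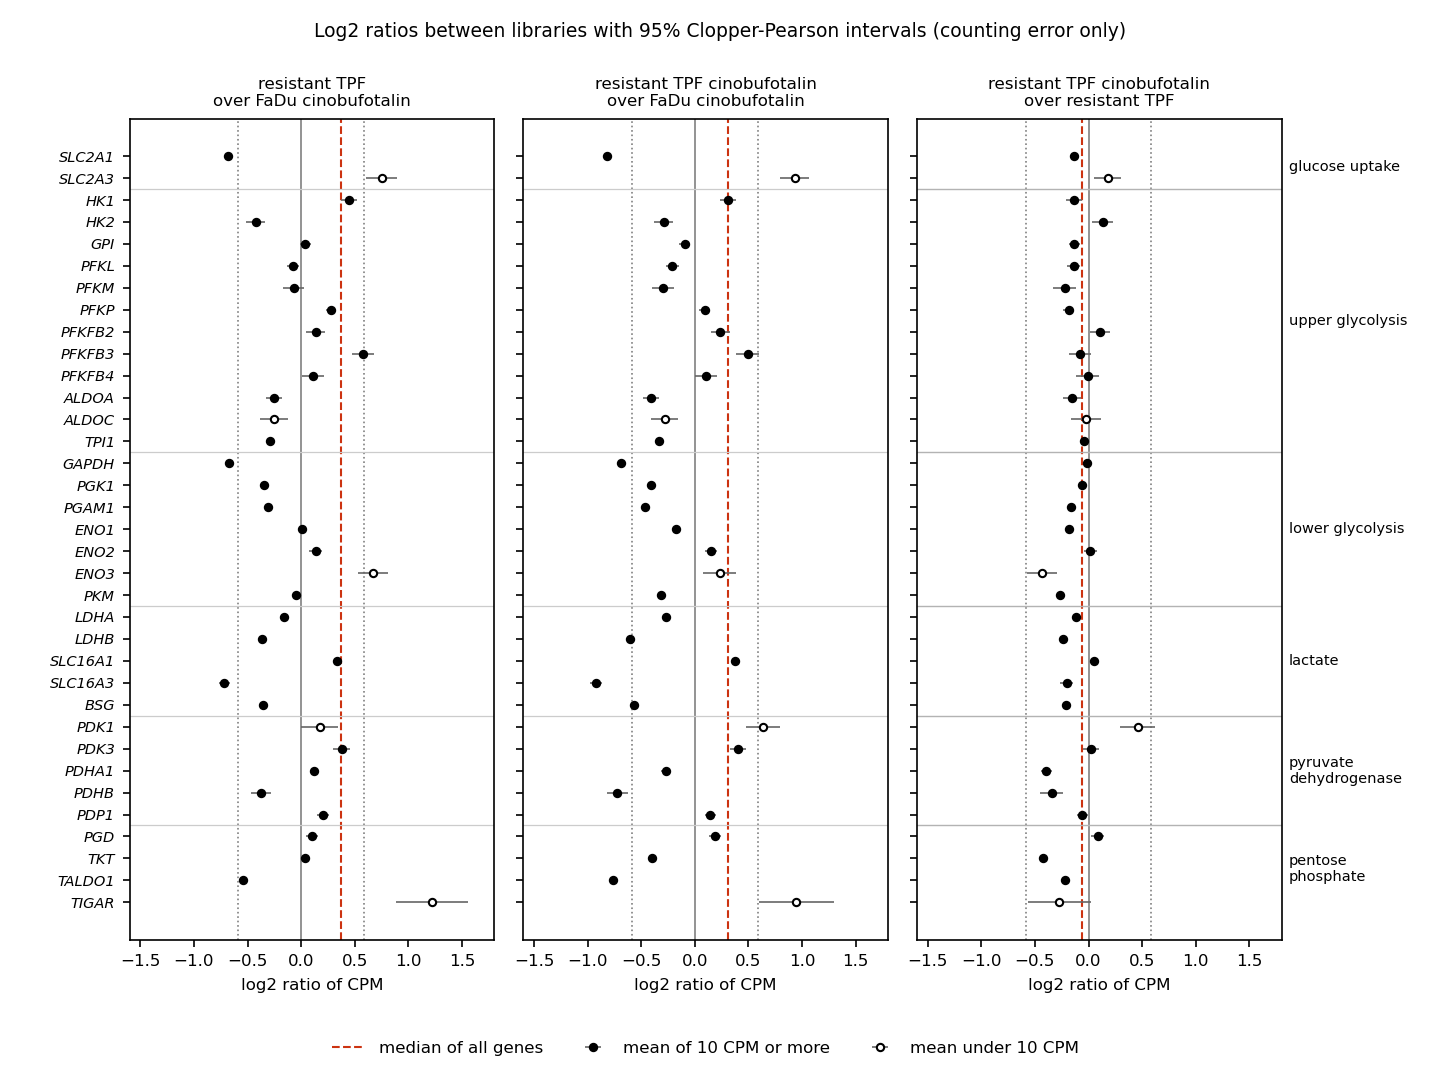
Log2 ratio of CPM for each gene in the 3 pairs of libraries; bars are exact 95% Clopper-Pearson intervals of counting error, dotted lines mark 1.5-fold, the dashed line the median of all genes, and open points genes under 10 CPM. In the pairs against FaDu cinobufotalin most points lie left of the dashed line (medians of all genes 0.37 and 0.31); between the resistant libraries no filled point reaches a dotted line.

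Among the glucose carriers, SLC2A1 was lower in the resistant libraries and SLC2A3 was not. SLC2A1 (GLUT1, chr1:42925375-42959176 on the minus strand, GRCh38), the carrier of basal glucose uptake in most cells, was at 119.7 CPM in the FaDu cinobufotalin library, 74.7 in the resistant TPF library and 68.0 in the combination library. It was 1.60-fold and 1.76-fold lower in the resistant libraries than in the FaDu library, with log2 ratios of -0.68 (95% interval -0.71 to -0.65) and -0.82 (95% interval -0.85 to -0.78). SLC2A3 (GLUT3), a carrier of higher affinity best known in neurons, was at 4.21 CPM in the FaDu cinobufotalin library, 7.09 in the resistant TPF library and 8.03 in the combination library. Its log2 ratios were 0.75 and 0.93, at levels below the 10 CPM needed for a call. SLC2A1 made up 96.6% (95% interval 96.3% to 96.8%) of the UMIs of both carriers in the FaDu library, 91.3% in the resistant TPF library and 89.4% in the combination library, shares that no scaling of the libraries can change.

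At the steps that trap and commit glucose, no member passed 1.5-fold in any pair. HK1, the hexokinase found in most tissues, was at 17.0 CPM in the FaDu cinobufotalin library, 23.3 in the resistant TPF library and 21.2 in the combination library, and HK2, the form often raised in tumours, was at 15.9, 11.9 and 13 CPM in the same order. Between the FaDu and resistant TPF libraries the log2 ratio was 0.45 for HK1 and -0.43 for HK2, and with TMM it was -0.12 and -0.99, so the sign of HK1 turned with the scale and that of HK2 did not. HK2 gave 48.3% (95% interval 47.0% to 49.6%) of hexokinase UMIs in the FaDu library, 33.8% (95% interval 32.4% to 35.1%) in the resistant TPF library and 38.1% in the combination library. Glucose phosphate isomerase (GPI) was at 46.5, 47.8 and 43.5 CPM. The 3 phosphofructokinase genes differed less: PFKL was at 35.3, 33.6 and 30.5 CPM, PFKM at 11.6, 11.1 and 9.47 CPM and PFKP at 40.4, 49.0 and 43.1 CPM. The platelet form PFKP went as a share of the 3 from 46.3% to 52.3% and 51.9%, and the liver form PFKL went from 40.4% to 35.9% and 36.7%.

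The PFKFB enzymes make and remove fructose 2,6-bisphosphate, the main activator of phosphofructokinase. PFKFB3, the form with the strongest kinase activity, was at 8.10, 12.1 and 11.4 CPM. In the first pair it had the highest log2 ratio of any member averaging 10 CPM or more. That ratio was 0.58 (95% interval 0.47 to 0.68), just under 1.5-fold. Under 10 CPM in FaDu, PFKFB3 averaged 10 CPM only through the resistant libraries, so the filter bears on its rank. SLC2A3, ENO3 and TIGAR, under 10 CPM on average, had higher log2 ratios in that pair (0.75, 0.67 and 1.22). PFKFB2 was at 12.3, 13.5 and 14.6 CPM and PFKFB4 at 10.1, 10.9 and 10.8 CPM, within 0.10 to 0.24 on the log2 scale against FaDu. The direction of PFKFB4 turned with the cells used: with MALAT1 at 0.05% to 0.2% of UMIs it was at -1.49 and -1.17 against FaDu, and it kept its sign in 6 and 7 of 15 alternatives. Of the aldolases, ALDOA was at 20.9, 17.5 and 15.7 CPM and ALDOC at 7.40, 6.21 and 6.09 CPM. ALDOC held 26.2%, 26.2% and 27.9% of their UMIs, with overlapping intervals. Both aldolase genes lie inside longer gene models on the same strand that cover 99.4% of ALDOA and all of ALDOC, so their counts are uncertain. In all, 16 members had a gene overlapping on the same strand, 5 of them one averaging 1 CPM or more. ATP7A (2.63 CPM) covers 63.9% of PGK1, LRRC23 (24.2 CPM) 5.01% of ENO2, and AC010197.2 (0.821 CPM) 18.3% of LDHB. How the counting treated such overlaps is not known. Triose phosphate isomerase (TPI1), which interconverts the 2 trioses, was at 1166, 955 and 926 CPM, with log2 ratios of -0.29 and -0.33 against FaDu.

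In the later steps of the route, GAPDH (chr12:6533927-6538374, plus strand), the triose phosphate dehydrogenase, was at 8142 CPM in the FaDu cinobufotalin library, 5103 in the resistant TPF library and 5046 in the combination library. It was 1.60-fold lower in the resistant TPF library, at -0.67 (95% interval -0.68 to -0.67), and 1.61-fold lower in the combination library, at -0.69. Between the resistant libraries it stood at -0.016, against -0.044 for TPI1. Next on the route, phosphoglycerate kinase (PGK1) was at 91.0, 71.6 and 68.8 CPM and phosphoglycerate mutase (PGAM1) at 453, 366 and 327 CPM, with log2 ratios against FaDu from -0.31 to -0.47. The enolases differed less: ENO1, the ubiquitous form, was at 310.5, 312 and 275 CPM, and ENO2, the form named for neurons, at 29.2, 32.1 and 32.4 CPM. ENO3, the muscle form, was at 4.38, 6.96 and 5.15 CPM, but 10.7% of it overlaps PFN1 on the opposite strand, which averaged 2663 CPM, and the sources used here do not say whether the counting used strand. Pyruvate kinase (PKM), which makes pyruvate, was at 411, 397 and 330.1 CPM, close in the first 2 libraries and -0.27 (95% interval -0.29 to -0.25) in the combination library against resistant TPF.

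Lactate handling divided between its 2 carriers. SLC16A3 (MCT4, chr17:82228397-82261129, plus strand), the exporter of highly glycolytic cells, was at 53.4 CPM in the FaDu cinobufotalin library, 32.5 in the resistant TPF library and 28.2 in the combination library. That is 1.64-fold lower in the resistant TPF library, -0.72 (95% interval -0.77 to -0.66), and 1.89-fold lower in the combination library, -0.92 (95% interval -0.98 to -0.87), the lowest log2 ratio of any member in both. SLC16A1 (MCT1, chr1:112911847-112957013, minus strand), which carries lactate in either direction, was higher in the resistant libraries on the CPM scale, at 76.5 CPM in the FaDu cinobufotalin library, 96.3 in the resistant TPF library and 99.4 in the combination library, or 0.33 and 0.38 on the log2 scale, near the medians of all genes (-0.24 and -0.14 with TMM). SLC16A3 gave 41.1% (95% interval 40.5% to 41.8%) of the UMIs of both carriers in the FaDu library, 25.3% (95% interval 24.6% to 25.9%) in the resistant TPF library and 22.1% (95% interval 21.5% to 22.7%) in the combination library. Over all kept cells this was the widest shift of any paralog group examined, -15.9 and -19.0 percentage points. In cells with MALAT1 at 0.05% to 0.2% of UMIs it was -6.56 and -10.6 points, and there the share of HK2 differed more, by -21.7 and -21.8 points. CSNK1D on the opposite strand covers 67.5% of SLC16A3 and was at 81.7, 90.4 and 80.7 CPM, a narrower range than that of SLC16A3. BSG, the chaperone of both carriers, was at 316, 246 and 212 CPM.

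Of the 2 subunit genes of lactate dehydrogenase, LDHB (chr12:21635342-21757857, minus strand), whose tetramers favour oxidation of lactate to pyruvate, was at 741 CPM in the FaDu cinobufotalin library, 577 in the resistant TPF library and 489 in the combination library. LDHA, whose tetramers favour lactate formation, was at 495, 443 and 409.6 CPM. LDHB had log2 ratios of -0.36 against FaDu in resistant TPF, -0.60 (95% interval -0.62 to -0.59) in the combination, and -0.24 between the resistant libraries, while LDHA stood at -0.16, -0.27 and -0.11. The LDHB share of their UMIs was 60%, 56.5% and 54.4%.

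**Figure D3:**
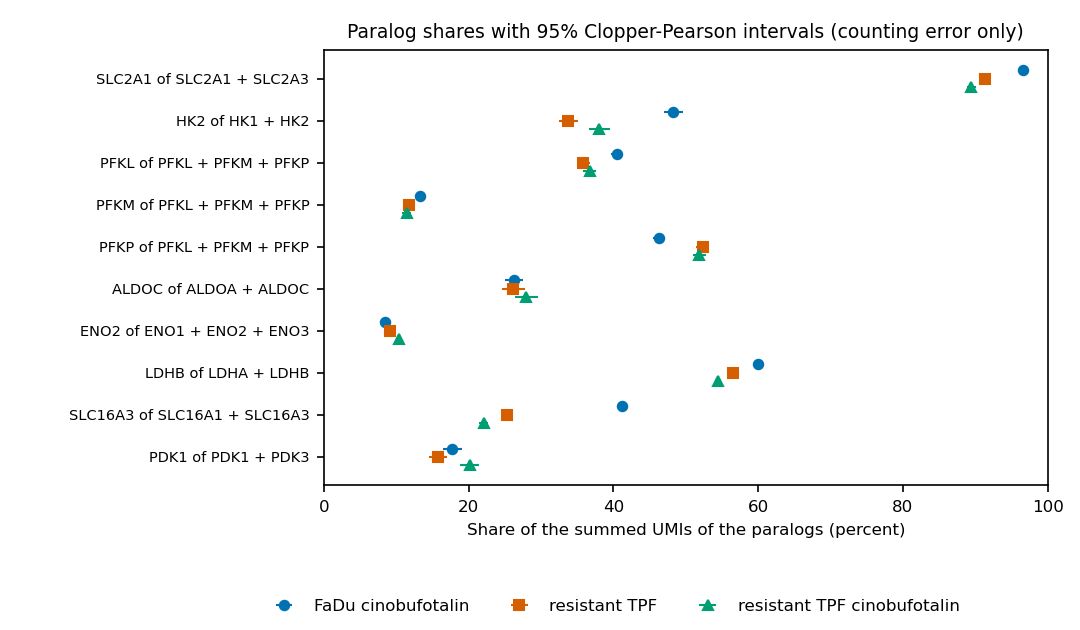
Share of each paralog in the summed UMIs of its group, in percent, by library; bars are exact 95% Clopper-Pearson intervals of counting error. SLC16A3 and HK2 are furthest left in the resistant libraries relative to FaDu cinobufotalin (25.3% and 33.8% in resistant TPF against 41.1% and 48.3%), and PFKP lies to the right (52.3% against 46.3%).

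At the entry to mitochondria, PDHB was the one measured gene past 1.5-fold, in the combination library against FaDu. PDHA1 and PDHB encode the alpha and beta subunits of pyruvate dehydrogenase. PDHA1 was at 57.5, 62.5 and 47.6 CPM and PDHB (chr3:58427630-58433857, minus strand) at 15.0, 11.5 and 9.07 CPM. PDHB was 1.65-fold lower in the combination library than in FaDu cinobufotalin, -0.72 (95% interval -0.82 to -0.62), and averaged 10 CPM only through the other 2 libraries. Between the resistant libraries the 2 subunit genes had similar log2 ratios, -0.39 (95% interval -0.44 to -0.35) and -0.35 (95% interval -0.45 to -0.24). The kinases PDK1 and PDK3, which switch the complex off, were at 3.48, 3.93 and 5.39 CPM and 16.2, 21.0 and 21.4 CPM. PDP1, the phosphatase that switches it on, was at 37.4, 43.0 and 41.3 CPM. No kinase or phosphatase at 10 CPM or more passed 1.5-fold. PDK1, under that level, had a log2 ratio of 0.63 in the combination library against FaDu, which turned to -0.83 in the lowest band of MALAT1.

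In the pentose phosphate pathway, which makes NADPH and ribose, the oxidative step enzyme PGD was at 30.3, 32.5 and 34.4 CPM. The 2 enzymes that return pentoses to glycolysis were lower in the combination library: transketolase (TKT) was at 120.4, 123 and 91.4 CPM, and transaldolase (TALDO1, chr11:747329-765024, plus strand) at 162, 111 and 95.7 CPM. TALDO1 was 1.69-fold lower in the combination library than in FaDu, -0.76 (95% interval -0.79 to -0.73), and at -0.54 in resistant TPF, short of 1.5-fold. TIGAR, a phosphatase that opposes PFKFB signalling, had the lowest level of any member in each library, at 0.693, 1.61 and 1.34 CPM. It lies wholly inside another gene model on its strand. Named pseudogenes, 107 of them for 14 members, summed to at most 1.09 CPM for any member in any library. Reads that the authors' counting may have dropped as ambiguous with them are not counted here.

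Within each library, cells were called G1, S or G2/M from standard phase genes after thinning to 5000 UMIs. In the resistant line some members differed between the calls, as did many other genes. In both resistant libraries the carriers SLC2A1 and SLC16A3 and the hexokinase HK2 fell furthest from G1-called to G2/M-called cells. In the resistant TPF library SLC2A1 was at 123 CPM in G1-called cells, 68.9 in S-called and 69.9 in G2/M-called cells. The level was 121, 65.5 and 62.4 CPM in the combination library and 144, 117 and 116 CPM in the FaDu library, in the same order of phases. SLC16A3 had the same pattern, with 56.6, 27.5 and 30.9 CPM in the resistant TPF library and 64.7, 50.6 and 51.8 in the FaDu library. On the log2 scale, G2/M-called over G1-called cells, SLC2A1 stood at -0.31, -0.81 and -0.95 in the 3 libraries, SLC16A3 at -0.32, -0.87 and -0.98, and HK2 at -0.23, -0.68 and -1.03. ENO2 went the other way, at 0.32, 0.63 and 0.66, and GAPDH was at 0.0086, 0.34 and 0.43. The carrier SLC16A1 was nearer to 0, at -0.073, -0.17 and -0.16, and SLC2A3, under 10 CPM, was at -0.38, 0.55 and 0.063. Of the 30 members, 0 were 1.5-fold higher and 0 lower in G2/M-called than G1-called cells of the FaDu library (all genes 3.84% and 4.91%). In the resistant TPF library 1 was higher (ENO2) and 4 lower (SLC2A1, SLC16A3, HK2 and PFKFB2) (all genes 10.5% and 11.5%), and in the combination library 1 was higher (ENO2) and 6 lower (those 4, PDP1 and PDHB) (all genes 9.64% and 14.9%). The share of all genes past 1.5-fold was thus also larger in the resistant libraries, and by these counts the members as a set did not stand out from all genes.

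The difference of the resistant libraries from the FaDu cinobufotalin library in SLC2A1 and SLC16A3 depended on the phase called. Among G1-called cells SLC2A1 was at -0.23 (resistant TPF over FaDu cinobufotalin) and -0.25 (combination over FaDu), and SLC16A3 at -0.19 and -0.31, all short of 1.5-fold. Among G2/M-called cells SLC2A1 was at -0.73 and -0.89. GAPDH was lowest against FaDu in G1-called cells, at -0.93 and -1.03. PDHB in G1-called cells was at -0.013 in the combination library. HK2 changed sign there, at 0.37 in the combination library over FaDu. In G1-called cells 1 member (PDK3) was 1.5-fold higher in resistant TPF than in FaDu (all genes 35.1%) and 2 (PFKFB2 and PDK3) in the combination (all genes 35.7%). There 2 members (GAPDH and LDHB) were 1.5-fold lower in resistant TPF (all genes 3.29%). In the combination 4 (GAPDH, PGAM1, LDHB and TALDO1) were lower (all genes 4.81%). G1-called cells were a minority (15.5%, 12.2% and 9.62% of kept cells deep enough to thin) and were shallower, with median depths of 21535, 22728 and 15463 UMIs. Their median MALAT1 share was 2.01% and 1.92% in the resistant libraries, against 0.697% and 0.634% in G2/M-called cells. The part of depth, MALAT1 share and free RNA in these phase differences was not tested, and a phase call alone does not show that a cell is cycling.

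**Figure D4:**
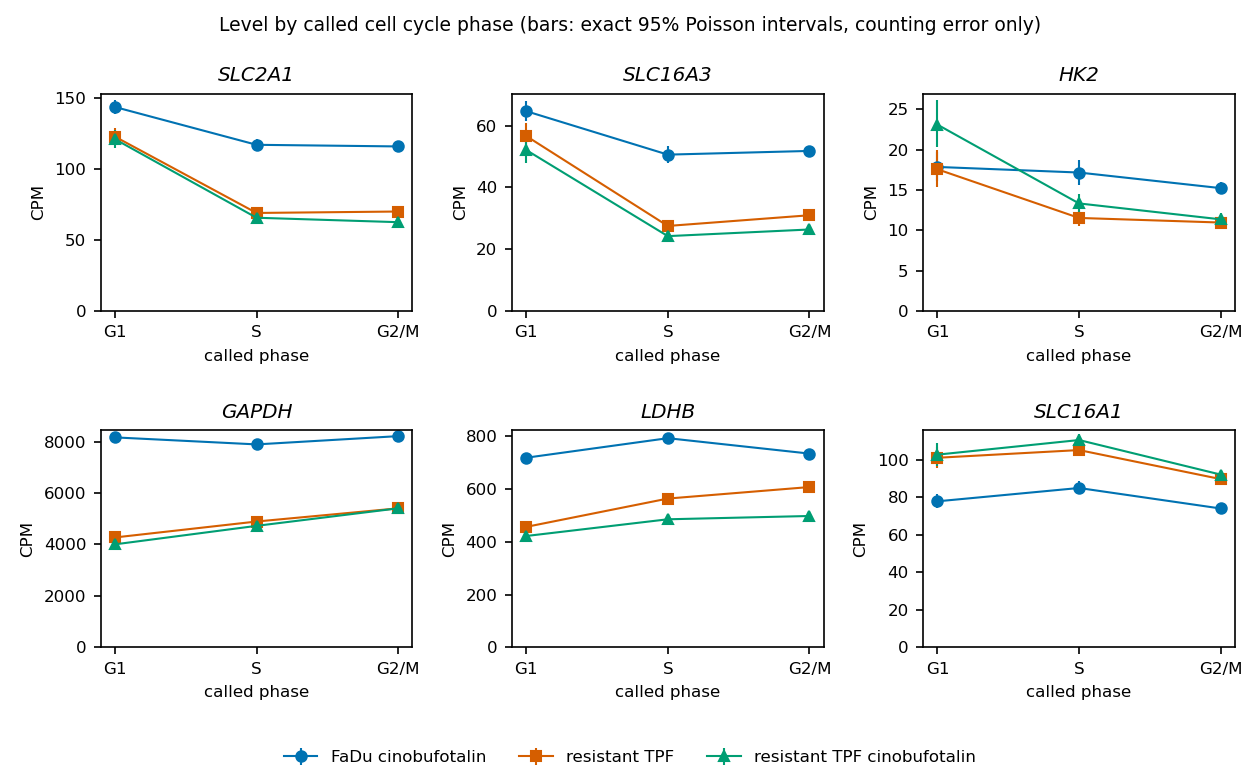
CPM of 6 members in cells called G1, S or G2/M, by library, with the axis from 0; bars are exact 95% Poisson intervals of counting error. SLC2A1, SLC16A3 and HK2 of the resistant libraries are highest in G1-called cells (123, 56.6 and 17.6 CPM in resistant TPF), whereas GAPDH and LDHB are lowest there (4272 and 456 CPM).

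The libraries also differ in MALAT1, so the comparisons were repeated within bands of MALAT1 share, among cells with at least 10000 UMIs and 2% to 8% mitochondrial UMIs. In the lowest band (0.05% to 0.2%), 5 of 28 members with 10 CPM there were lower in resistant TPF than in FaDu (SLC2A1, HK2, PGK1, SLC16A3 and BSG, all genes 4.66%). In the combination library against FaDu 11 were lower (all genes 8.67%), and against resistant TPF 3 were (PFKM, PDHA1 and TKT, all genes 2.33%). The resistant libraries had 285 and 342 cells in this band. In cells with MALAT1 at 1% to 2% of UMIs, SLC2A1 was at -0.87 in resistant TPF against FaDu and SLC16A3 at -0.94, further from 0 than over all cells. At 0.05% to 0.2% they were at -0.86 and -0.78. GAPDH was nearer to 0 within all 3 bands, from -0.36 to -0.49 in resistant TPF and from -0.30 to -0.50 in the combination, under 1.5-fold in each band. LDHB in the combination library was likewise at -0.46 to -0.35 within bands. SLC16A1, higher over all cells, was at -0.36 in the lowest band, -0.10 in the middle and 0.14 in the highest. HK2 was lower within each band, at -0.96, -0.75 and -0.89 in resistant TPF, past 1.5-fold where it was -0.43 over all cells.

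The shares of SLC2A1, HK2, PFKP, PFKL, LDHB and SLC16A3 among their paralogs, which no scaling touches, kept their direction against FaDu in these and other sets of cells, which were added for the shares after seeing the data. Over all 11 sets of cells tried (the kept cells, all barcodes, other filters, phases and MALAT1 bands), the SLC16A3 share in resistant TPF minus that in FaDu ran from -16.6 to -6.56 points. The same difference ran from -21.7 to -9 points for HK2, from -5.89 to -0.682 for LDHB, from -7.20 to -0.733 for SLC2A1 and from 2.28 to 7.48 for PFKP. The ENO2 share changed sign, from -0.206 to 2.01. In the combination library against FaDu the HK2 share differed least in G1-called cells, -1.65 points, with overlapping intervals for 48.9% (95% interval 45.4% to 52.4%) and 47.2% (95% interval 42.9% to 51.6%).

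Single cells show which members vary together. Each cell was thinned to 5000 UMIs, which left 5979, 4657 and 6954 cells and dropped 144, 205 and 571 shallower ones. A thinned cell held a mean of 38.5, 24.8 and 23.4 GAPDH UMIs, with a variance 6.85, 5.74 and 6.64 times the mean. The 5th to 95th percentiles of cells ran from 15 to 66 UMIs in FaDu, 8 to 46 in resistant TPF and 5 to 46 in the combination. Pearson's r across cells between a gene and the summed UMIs of the other members (log scale) was 0.40, 0.33 and 0.42 for GAPDH, 0.40, 0.35 and 0.41 for TPI1, 0.42, 0.34 and 0.28 for LDHB and 0.30, 0.31 and 0.33 for LDHA. It was 0.14, 0.15 and 0.17 for PKM, near 0 for SLC2A1 (-0.016, 0.021 and 0.021) and below 0 for SLC16A1 (-0.095, -0.15 and -0.068). Genes with fewer UMIs per cell, such as SLC2A1 and SLC16A1 beside GAPDH and TPI1, carry more counting noise. That noise brings r nearer to 0 and was not corrected for. The size of r therefore cannot be compared between genes of unlike level. GAPDH held most of the summed UMIs, so for the other genes r is largely r with GAPDH. Cells of a library share its chemistry and medium, and thinning fixes the total, so r is given as a description.

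Pairs of members were also taken in cells thinned to 10000 UMIs. The pairs with GAPDH largely repeat the values above, since GAPDH held most of the summed UMIs. GAPDH and TPI1 had r of 0.44, 0.39 and 0.43, GAPDH and LDHB 0.47, 0.34 and 0.28, and LDHA and LDHB 0.32, 0.33 and 0.26. GAPDH and SLC16A1 ran against each other, at -0.16, -0.20 and -0.14. The members without GAPDH had r of 0.16, 0.22 and 0.20 with the cell's depth before thinning, and -0.067, -0.028 and 0.22 with MALAT1. Their r with the summed other hypoxia genes was 0.090, 0.0084 and 0.16. These last values are weak, and the median over all pairs of members with at least 0.5 UMI per thinned cell lay between 0.074 and 0.10.

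**Figure D5:**
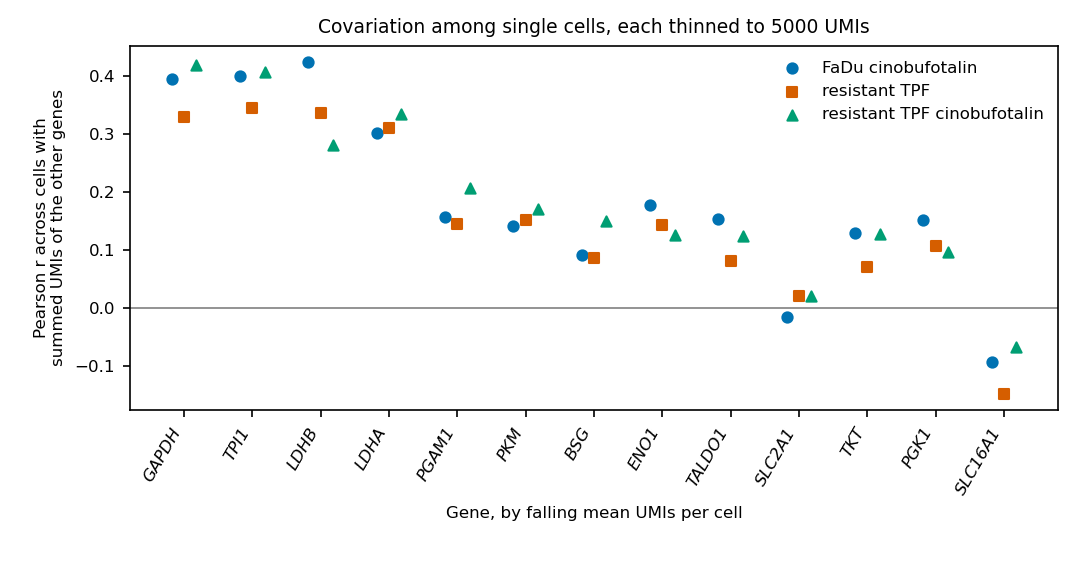
Pearson's r across single cells, thinned to 5000 UMIs, between each of the 13 members with most UMIs per cell and the summed UMIs of the other members, by library; genes are ordered by falling mean. GAPDH, TPI1, LDHB and LDHA are highest (for example 0.40, 0.35 and 0.41 for TPI1) and SLC16A1 lies below 0 in all 3 libraries. GAPDH holds most of the sum used for the other genes, and counting noise brings r nearer to 0 for genes with fewer UMIs.

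Beyond the 35 genes, 59 other genes of sugar and pyruvate metabolism were listed, of which 21 averaged 10 CPM. In resistant TPF against FaDu, 4 were higher and 1 lower (all genes 35% and 2.01%), with a median log2 ratio of 0.22. Against FaDu, the combination library had 4 higher and 1 lower (all genes 32.6% and 4.14%), with a median of 0.14. Between the resistant libraries 0 were higher and 0 lower (all genes 0.0737% and 0.172%). The higher genes were SLC2A13, a proton-coupled inositol carrier of the glucose carrier family (5.43, 13 and 12.9 CPM), and GPD2, the mitochondrial glycerol phosphate dehydrogenase (12, 21.4 and 24 CPM). GOT1, the cytosolic aspartate aminotransferase of the malate-aspartate shuttle (37.9, 64.0 and 58.1 CPM), and EMB, embigin, another chaperone of monocarboxylate carriers (19.9, 30.6 and 30.8 CPM), were the others. The lower gene was G6PC3, the ubiquitous glucose-6-phosphatase (37.6, 24.1 and 22.6 CPM). These were the genes past 1.5-fold in both pairs against FaDu, which share the FaDu library. SLC2A13, under 10 CPM in FaDu, averaged 10 CPM only through the resistant libraries, so the filter bears on its call. With TMM the counts were 0 higher and 6 lower in resistant TPF (all genes 8.16% and 21.8%). They were 0 higher and 7 lower in the combination library (all genes 9.63% and 25.3%).

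Of 16 listed regulators of the pathway, 14 averaged 10 CPM, and 6 were higher and 0 lower in resistant TPF than in FaDu cinobufotalin, against 35% and 2.01% of all genes. In the combination library 6 were higher and 1 lower, against 32.6% and 4.14%. With TMM the counts were 2 higher and 2 lower in the first pair (all genes 8.16% and 21.8%) and 3 higher and 2 lower in the second (all genes 9.63% and 25.3%). TXNIP, which restrains glucose uptake by removing glucose carriers from the membrane and is induced by glucose metabolites, was at 18.3 CPM in the FaDu cinobufotalin library, 167 in the resistant TPF library and 171 in the combination library. It was 9.15-fold and 9.39-fold higher, 3.19 (95% interval 3.14 to 3.25) and 3.23 (95% interval 3.18 to 3.29) on the log2 scale. ARRDC4, its paralog under the same sugar-sensing factors, was at 4.49, 27.1 and 25.1 CPM. Under 10 CPM in FaDu, ARRDC4 averaged 10 CPM only through the resistant libraries, so the filter bears on its call. HIF1A, the oxygen-regulated subunit of HIF-1, was at 38.5, 82.3 and 84.9 CPM. None of these 3 passed 1.5-fold between the resistant libraries, where their log2 ratios were 0.038, -0.11 and 0.045. EPAS1 (0.96), EGLN3 (0.61) and NFE2L2 (0.65) were the other 3 past 1.5-fold in resistant TPF. The 6 higher in the combination library against FaDu included EPAS1 (0.84) and EGLN3 (0.66), and not all of their values are given here. ESRRA was lower there (-0.67). EPAS1, EGLN3, NFE2L2 and ESRRA were named after their values were seen. Across cells TXNIP and the members without GAPDH had r of -0.069, -0.17 and -0.14 at 10000 UMIs.

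Hypoxia-inducible genes outside the pathway had medians between those of the members and of all genes in both pairs against FaDu. Of 22 listed, 18 averaged 10 CPM, and 6 were higher and 1 lower in resistant TPF than in FaDu (all genes 35% and 2.01%), with a median log2 ratio of 0.085. In the combination library 5 were higher and 0 lower (all genes 32.6% and 4.14%), with a median of 0.14. With TMM the counts were 1 higher and 6 lower in the first pair (all genes 8.16% and 21.8%). In the second pair they were 1 higher and 5 lower (all genes 9.63% and 25.3%). The highest in the first pair were ANGPTL4, a secreted lipase inhibitor (6.30, 15.2 and 12.8 CPM), P4HA2, a collagen prolyl hydroxylase (10.2, 18.8 and 17.6 CPM), and KDM3A, a histone demethylase (8.72, 16.0 and 20.3 CPM). ANGPTL4 and KDM3A, under 10 CPM in FaDu, averaged 10 CPM only through the resistant libraries. The lowest was BNIP3, a mitophagy receptor (138, 85.4 and 97.0 CPM), followed by INSIG2 at -0.27 and FAM162A at -0.25. In the combination library over FaDu the highest were KDM3A (1.22), PLOD2 (1.09) and ANGPTL4 (1.03), and the lowest BNIP3 (-0.51), ERO1A (-0.35) and INSIG2 (-0.29). Between the resistant libraries 0 passed 1.5-fold in either direction (all genes 0.0737% higher and 0.172% lower), with a median of 0.11. There KDM3A (0.34), PLOD2 (0.24) and BHLHE40 (0.20) were highest and ADM (-0.43), ANGPTL4 (-0.25) and ERO1A (-0.21) lowest.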

How the data were processed

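Single-cell libraries, 1 per group, were made from FaDu cells treated with cinobufotalin and from TPF-resistant FaDu cells treated with TPF or TPF plus cinobufotalin. The authors deposited filtered matrices of UMI counts per gene and barcode, and the submitters' processing notes name Cell Ranger 7.0 and hg38. The sources used here do not name the annotation or say how introns and strand were used, and all 58735 features match GENCODE 29. The members and gene lists were chosen with earlier results of these data known.

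The cells kept had 1000 or more UMIs, 500 or more genes and no more than 20% mitochondrial UMIs (165847771, 135176387 and 134802289 UMIs in all), with no doublet removal. CPM were computed from UMIs summed over each library's kept cells. Genes averaging 10 CPM were counted, at 1.5-fold, since 1 library per group allows no test across genes. Intervals are Clopper-Pearson on the pooled counts of a pair or paralog group (SciPy 1.17.1). For per-cell measures cells were thinned to 5000 or 10000 UMIs; phases were called with Scanpy 1.11.5. TMM factors came from edgeR 4.0.16. On counts simulated for each pair, all 50 genes changed 2-fold up and all 50 changed 2-fold down were called, and none of the 7943 unchanged. The intervals covered the simulated fold for 88% to 100% of the genes in each changed set. These counts held counting error only, so the outcome checks the computation and does not bear on the spread between libraries or cultures. All 35 members were named, other lists by a fixed rule: past 1.5-fold, at most 6 per pair, with the 3 most extreme hypoxia genes in each direction. Alternatives are in the closing section. Promoter windows are RefSeq's (GRCh38.p14).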

Additional observations from a re-analysis of the deposited data

How the results depend on the processing

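No paired analysis was possible because each group is 1 library, and for the same reason no library could be left out. In resistant TPF over FaDu cinobufotalin, the count of members at least 1.5-fold lower (3) became 16 with TMM factors, 12 from the median gene, 5 in cells with MALAT1 at 0.05% to 0.2% (all genes 4.66%), and 0 at 2-fold. The count higher (0) became 1 with all barcodes, 1 in G1-called cells (all genes 35.1%) and 3 with genes from 1 CPM. The median (-0.059) became -0.15 in G1-called and -0.13 in S-called cells, -0.25 in the low MALAT1 band, -0.13 without mitochondrial and ribosomal genes in the total, -0.63 with TMM, -0.43 from the median gene and 0.00533 from 1 CPM. In combination over FaDu, the count lower (6) became 20 with TMM, 16 from the median gene, 11 in the low MALAT1 band (all genes 8.67%) and 0 at 2-fold. The count higher (0) became 2 in G1-called cells (all genes 35.7%) and 3 from 1 CPM. The median (-0.28) became -0.45, -0.21 and -0.23 in the MALAT1 bands from low to high, -0.35 without mitochondrial and ribosomal genes, -0.80 with TMM and -0.60 from the median gene. In combination over resistant TPF, the count lower (0) became 3 in the low MALAT1 band (all genes 2.33%), and the median (-0.14) became -0.053 in G1-called cells and -0.078 from the median gene. The scaling causes the shifts under TMM, under centring and without mitochondrial and ribosomal genes in the total, since it moves every gene alike. The cause of the others was not tested. The lower ratios of SLC2A1 and SLC16A3 against FaDu kept their sign in all 15 alternatives for each and stayed past 1.5-fold in 14 of 15, G1-called cells being the exception. Depth limits SLC2A3, ENO3, PDK1 and TIGAR most.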
